A study of Oryza sativa with 6 samples.

Results

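The loci described here are those of nutrient transport in the mesocotyl of rice: transporters of nitrate, peptides, ammonium, phosphate, sulfate, zinc and iron, and the enzymes and transporters of the metal chelator nicotianamine. Members were chosen by the product name in the deposited table, with no use of how a locus changed, among loci that reached at least 1 FPKM in at least 1 library. FPKM, the unit the authors deposited, counts fragments relative to the length of the transcript and to the mapped fragments of the library. The rule gave 59 loci of 35500 in all, or of 23787 loci that reached the same minimum. Another 16 loci with a matching name lay under the minimum, the nearest of them a nitrate transporter-activating protein (ZS04g0589300) that reached 0.876 FPKM, while the lowest locus inside it, a phosphate transporter 1-4 (ZS04g0125800), reached 1.13 FPKM.

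Poly(A) RNA came from mesocotyls of P25, an indica cultivar. This organ lies below the coleoptile and elongates in seedlings that germinate without light. Each of the 6 groups was 1 RNA pool sequenced as 1 library: seedlings kept in darkness for 1, 3 or 5 days, and seedlings kept in darkness for 5 days and then lit, for 30 min in 1 group, 60 min in another and 24 h in the last. By its title, the series concerns how light stops the mesocotyl from elongating. With 1 library a group there is no replicate check and no p-value, and a value called higher or lower is so between single libraries.

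Plants take up nitrogen as nitrate, through the NRT2 and NRT1/PTR families, and as ammonium, through the AMT family. The NRT1/PTR family (NPF) is broad, and its members also carry peptides and hormones. Phosphate enters cells through PHT1 transporters and is released toward the xylem by PHO1 proteins. Nicotianamine is built from S-adenosylmethionine by nicotianamine synthase and binds iron, zinc and manganese for movement through the plant. In grasses, nicotianamine aminotransferase turns it toward the mugineic acid family of iron carriers, and YSL proteins carry the metal complexes across membranes.

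Among the members, 23 were grouped under the NRT1/PTR family, 9 under phosphate transporters, 8 under zinc transporters and 6 under ammonium transporters. Sulfate transporters and metal-nicotianamine transporters had 4 each, nicotianamine enzymes 3, and the NRT2 nitrate transporters and iron transporters 1 each. The phosphate group includes a glycerol-3-phosphate transporter (ZS06g0095200), which the rule caught by name, and the 3 nicotianamine enzymes are not transporters. The NRT1/PTR group includes a locus named probable peptide/nitrate transporter At3g43790 (ZS01g0178400). Its product name does not give that family, so its place there is uncertain. In the plot of all members by library, the nicotianamine synthases stand above the rest, except at 60 min of light. There NPF2.11 (ZS03g0615400) stood at 48.2 FPKM, between the synthases at 87.4 and 35.8 FPKM. The summed level of the 3 nicotianamine enzymes was 597, 325 and 461 FPKM after 1, 3 and 5 days of darkness. It was 816, 138 and 1098 FPKM after 30 min, 60 min and 24 h of light. The other 56 members together held 221, 415, 456, 463, 318 and 433 FPKM in the same order.

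**Figure D1:**
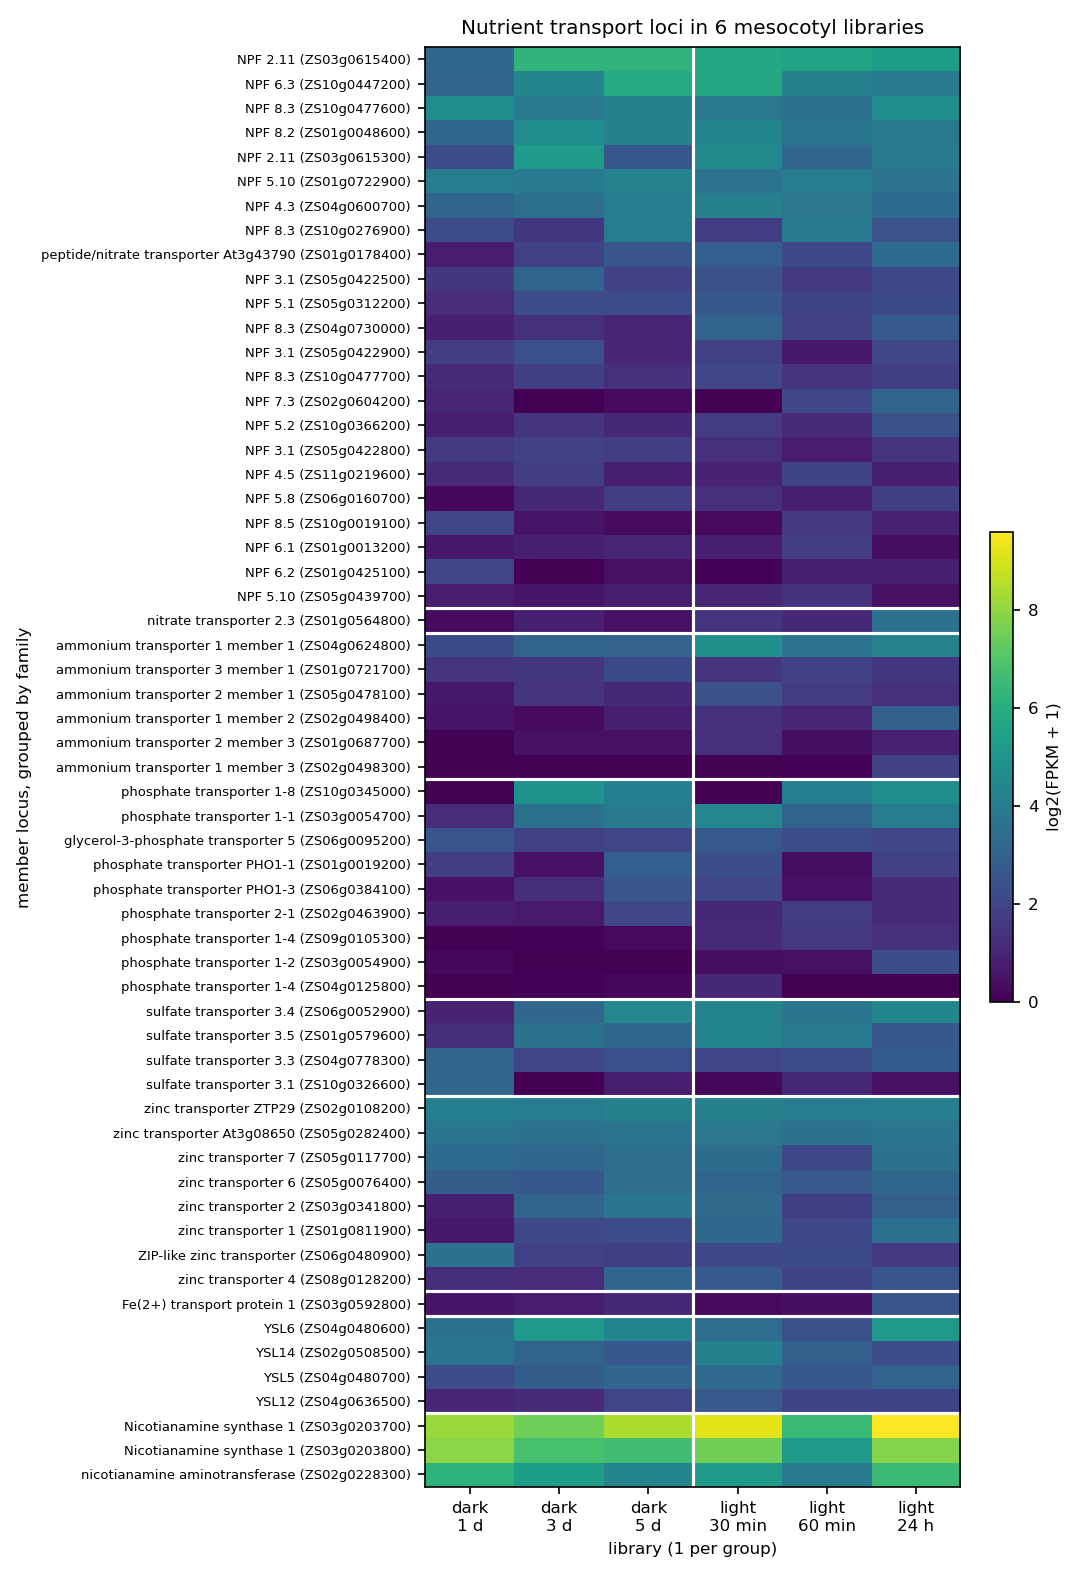
Level of each of the 59 members (rows, grouped by family, ordered by mean level within a family) in the 6 libraries (columns), as log2(FPKM + 1). Outside the 60-min library the nicotianamine synthase rows are the brightest of all, up to 773 FPKM at 24 h of light. Both are at their lowest in the 60-min library, at 87.4 and 35.8 FPKM.

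The libraries differed in ways the groups do not state. A list of 14 green shoot marker loci (antenna proteins, Rubisco small subunit, photosystem subunits) summed to 68.2, 25.8 and 325 FPKM after 1, 3 and 5 days of darkness and to 33.0, 1025 and 55.2 FPKM after 30 min, 60 min and 24 h of light. The 5-day dark and 60-min light libraries thus stood apart; 1 of the 14 loci was under 1 FPKM in each of them, against 5 to 11 in the others. A list of 6 root marker loci, all named cortical cell-delineating protein, summed to 1217 FPKM at 1 day and to 105 to 361 FPKM elsewhere. Of the 1-day sum, ZS10g0446300 held 854 FPKM and ZS10g0444600 350.4 FPKM, while ZS03g0012400 stood at 306 FPKM at 3 days, against 6.99 FPKM at 1 day. No locus of the seed and endosperm list reached 1 FPKM. In the 3-day dark library 1 locus held 14.9% of all FPKM. Library sums ran from 336212 to 359808 FPKM, and 38, 43 and 45 members passed 1 FPKM in the dark libraries and 49, 47 and 51 in the light libraries. Over all loci these counts were 15983, 16645 and 18612 in the dark libraries and 17986, 18569 and 17897 in the light libraries. In bulk tissue, fewer cells of a type and less RNA per cell cannot be told apart.

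The most abundant NRT1/PTR locus was an NPF2.11 (ZS03g0615400), named after an Arabidopsis transporter of glucosinolates. It stood at 8.18, 75.2 and 75.2 FPKM after 1, 3 and 5 days of darkness and at 54.0, 48.2 and 40.5 FPKM after 30 min, 60 min and 24 h of light. The 1-day library was the low one, and the other 5 lay within 2-fold of each other. A second NPF2.11 with a neighbouring identifier (ZS03g0615300) stood at 3.94, 39.0, 5.28, 22.4, 7.89 and 14.3 FPKM in the same order, in which all further runs of 6 values stand (darkness of 1, 3 and 5 days, then light of 30 min, 60 min and 24 h). This pair was high together at 3 days, but at 5 days the second locus stood at 5.28 FPKM while the first was at its 3-day level. Loci that share a product name may share reads, so the split between them is uncertain.

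NPF6.3 (ZS10g0447200) carries the name of the Arabidopsis transporter and sensor of nitrate. Its levels were 7.36, 19.9 and 59.5 FPKM over the 3 dark libraries and 54.0, 17.3 and 14.0 FPKM over the 3 light libraries. It was thus high after 5 days of darkness and 30 min of light and low at both later light times. The log2 difference, on the log2(FPKM + 1) scale used for all differences here, was -1.72 at 60 min and -2.01 at 24 h of light against 5 days of darkness. With the 3-day dark library as the control, these were -0.19 and -0.48.

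NPF8 names are those of peptide transporters in Arabidopsis. The NPF8.3 locus ZS10g0477600 stood at 24.6, 13.6, 17.6, 13.5, 10.9 and 24.4 FPKM over the 6 libraries, and NPF8.2 (ZS01g0048600) at 8.16, 24.1, 17.3, 20.2, 12.2 and 13.8 FPKM. A different NPF8.3 (ZS10g0276900) stood at 3.69, 1.95, 15.9, 2.27, 14.6 and 4.43 FPKM. It was high in the 5-day dark and 60-min light libraries, where the green shoot markers were also high. The part of green tissue in this result was not tested. The NPF8.3 locus ZS04g0730000 stood at 0.786, 1.52 and 0.994 FPKM in darkness and at 7.30, 2.74 and 5.52 FPKM in the light, above every dark level at each light time. Against 5 days of darkness its log2 difference was 2.06 at 30 min and 1.71 at 24 h, and it was 1.72 and 1.37 against 3 days.

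**Figure D2:**
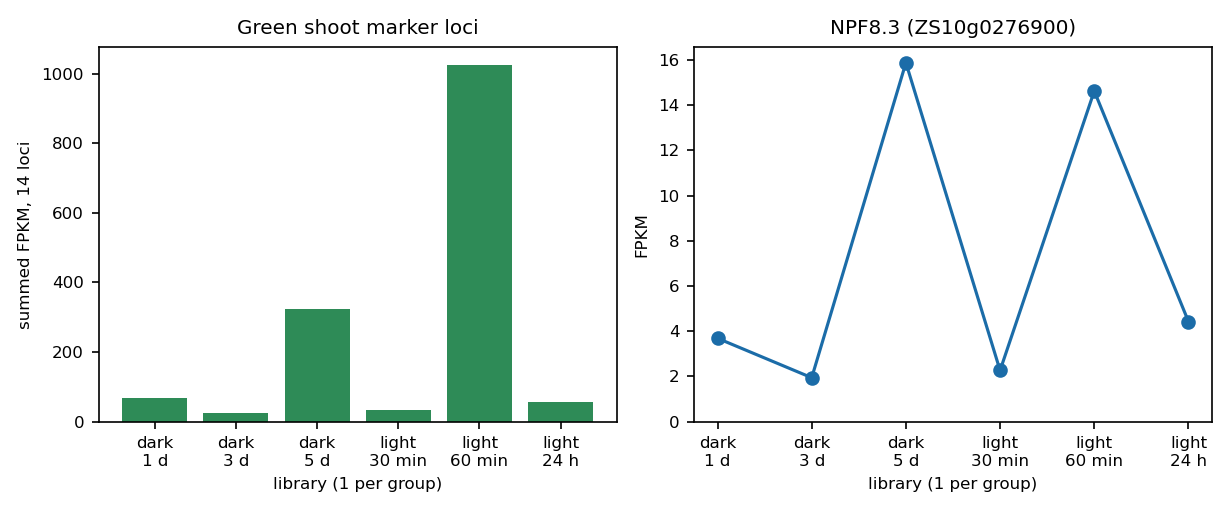
Left, summed FPKM of 14 green shoot marker loci in each library; right, FPKM of the NPF8.3 locus ZS10g0276900 in the same libraries (1 library per group). Both are high in the 5-day dark library (325 and 15.9 FPKM) and in the 60-min light library (1025 and 14.6 FPKM).

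The less abundant NRT1/PTR loci differed in where they were high. NPF7.3 (ZS02g0604200), in Arabidopsis the loader of nitrate into the xylem, was listed at 1.01, 0, 0.211, 0.0115, 3.07 and 7.55 FPKM, with its high values at the 2 later light times. NPF6.2 (ZS01g0425100), in Arabidopsis a leaf petiole nitrate transporter, stood at 2.99, 0.0174, 0.353, 0.0552, 0.729 and 0.750 FPKM. NPF8.5 (ZS10g0019100) stood at 3.07, 0.455, 0.222, 0.177, 1.99 and 0.852 FPKM. NPF6.2 and NPF8.5 were highest at 1 day, and NPF6.2 passed the minimum of 1 FPKM through that library alone. The NPF3.1 loci ZS05g0422500 and ZS05g0422900 were highest at 3 days, the first at 1.95, 7.53, 2.64, 4.25, 2.06 and 3.39 FPKM. The second stood at 2.33, 4.08, 1.06, 2.63, 0.561 and 3.11 FPKM.

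High-affinity nitrate transporter 2.3 (ZS01g0564800), which in rice moves nitrate from root to shoot, stood at 0.218, 0.774 and 0.369 FPKM in the dark. In the light it stood at 1.69, 1.16 and 10.9 FPKM, so the 24 h library was the high one. Its log2 difference at 24 h was 3.12 against 5 days and 2.74 against 3 days of darkness. The locus passed the minimum of 1 FPKM through the light libraries alone.

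Of the 6 ammonium transporters, 2 were at least 2-fold above 5 days of darkness at 30 min of light. At 60 min 0 were, and at 24 h 3 were. None was 2-fold below. The shares of all loci at those times were 9.49%, 14.8% and 11.6% higher and 11.4%, 12.8% and 14.4% lower. AMT1 member 1 (ZS04g0624800), an ammonium uptake transporter of rice, stood at 3.48, 7.33 and 7.09 FPKM in darkness and at 26.5, 11.6 and 18.2 FPKM after 30 min, 60 min and 24 h of light. Every light level lay above every dark level. AMT1 member 2 (ZS02g0498400) and AMT1 member 3 (ZS02g0498300), with neighbouring identifiers, were high in the 24 h library alone. They stood there at 6.60 and 2.68 FPKM, against at most 1.45 and 0.0777 FPKM in the other 5 libraries. Member 3 was listed at 0 in all 3 dark libraries. It passed the minimum of 1 FPKM through the 24 h library alone, so it had to be counted as higher there. The other 3 reached 1.53 to 4.24 FPKM, and AMT3 member 1 (ZS01g0721700) stood at 1.78, 2.58 and 1.95 FPKM in the light, against 3.49 FPKM at 5 days of darkness. AMT1 member 2 passed the minimum through the 30-min and 24 h libraries alone, and AMT2 member 3 (ZS01g0687700) through the 30-min library alone. Summed over all 6, ammonium transporters held 6.26, 11.5 and 12.8 FPKM in the dark libraries and 35.5, 17.8 and 31.7 FPKM in the light libraries. The counts and sums of this family thus include loci that entered through their light levels.

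**Figure D3:**
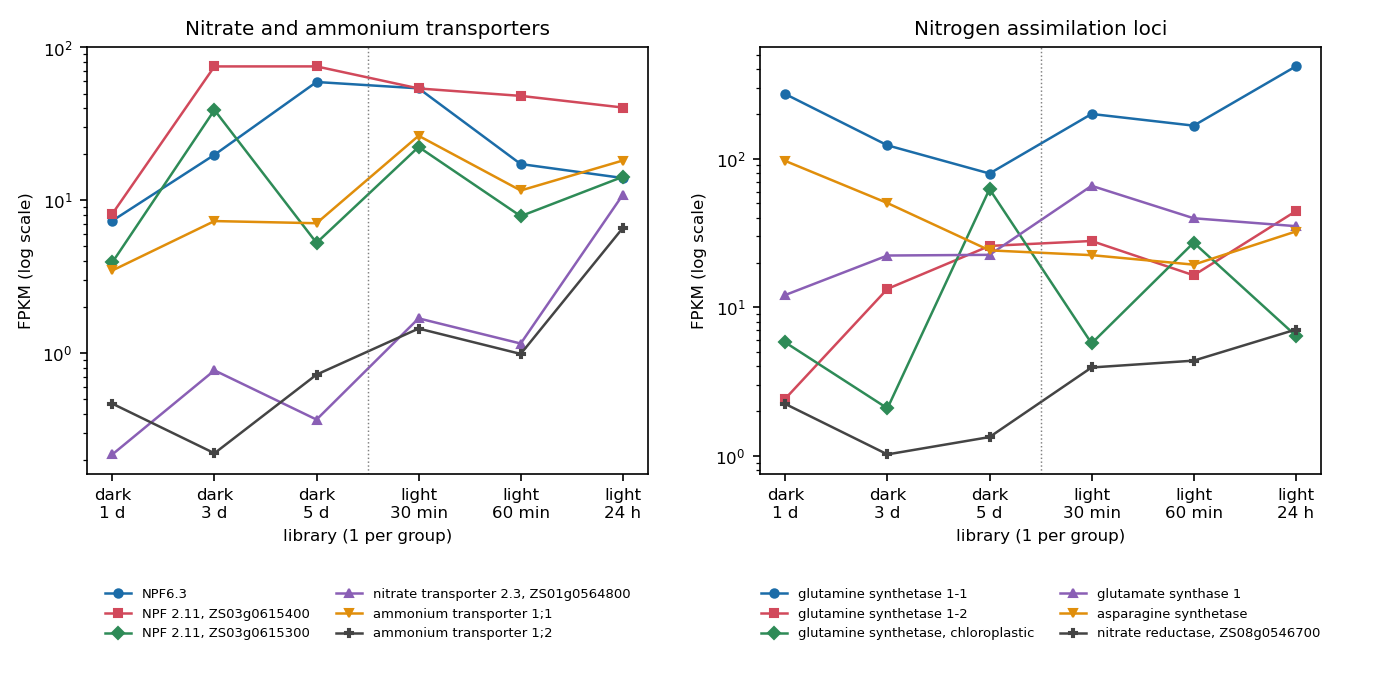
FPKM (log scale) of nitrate and ammonium transporters (left) and of nitrogen assimilation loci (right) in the 6 libraries, 1 library per group. At 24 h of light nitrate transporter 2.3 stood at 10.9 FPKM and cytosolic glutamine synthetase 1-1 at 418 FPKM, the highest of their 6 libraries.

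The assimilation list held 10 loci of the enzymes that reduce nitrate and fix ammonium. Against 5 days of darkness, 5 of the 10 were higher by 2-fold or more at 30 min of light and 1 was lower, and at 24 h 4 were higher and 1 lower. Against 3 days of darkness these counts were 5 and 1 at 30 min and 6 and 0 at 24 h. Of all loci, 9.49% were higher and 11.4% lower at 30 min and 11.6% and 14.4% at 24 h against 5 days, and 12.9% and 4.9%, then 14.8% and 6.5%, against 3 days. The median difference of the list against 5 days was 0.76 at 30 min and 0.70 at 24 h, where the median over all loci was 0. Against 3 days the list medians were 0.98 and 1.29, beside 0.27 and 0.23 over all loci. Cytosolic glutamine synthetase 1-1 (ZS02g0623000), which joins ammonium to glutamate, stood at 272, 123, 79.5, 200.0, 167 and 418 FPKM. Glutamate dehydrogenase (ZS03g0737700) stood at 130.3, 24.9, 24.6, 105, 27.8 and 101 FPKM, high at 1 day, 30 min and 24 h. Asparagine synthetase (ZS03g0182300) stood at 96.5, 50.2, 24.1, 22.4, 19.3 and 32.3 FPKM, with its high value at 1 day. Of loci singled out after their values were seen, glutamate synthase 1 (ZS01g0547900) stood at 12.1, 22.3, 22.5, 65.7, 39.7 and 35.1 FPKM and nitrate reductase (ZS08g0546700) at 2.23, 1.02, 1.34, 3.93, 4.37 and 7.07 FPKM, both higher at every light time than at any dark time. Glutamine synthetase 1-2 (ZS03g0114000) stood at 2.43, 13.3, 25.9, 27.9, 16.4 and 44.3 FPKM. The lower locus at 30 min and 24 h was chloroplastic glutamine synthetase (ZS04g0783400). It stood at 62.4 and 27.2 FPKM in the 5-day dark and 60-min light libraries and at 2.09 to 6.44 FPKM in the others, again the libraries with high green shoot markers.

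Among phosphate transporters, PHT1-1 (ZS03g0054700), an uptake transporter of rice, stood at 1.32, 10.7 and 14.3 FPKM in darkness and at 20.5, 7.42 and 15.3 FPKM in the light. The 1-day library was the low one. PHT1-8 (ZS10g0345000), a high-affinity transporter in rice, was listed at 0, 28.5 and 16.6 FPKM in darkness and at 0, 16.7 and 24.5 FPKM in the light. A listed 0 can be a failed estimate, so no fold is given for the 1-day and 30-min libraries. Of the 59 members this was the only one listed at 0 somewhere and at 10 FPKM or more elsewhere, as were 2.21% of all loci; 7 members (11.9%), beside 21.2% of all loci, were listed at 0 in at least 1 library. PHT1-2 (ZS03g0054900), which in rice moves phosphate to the shoot, was listed at 0.159, 0, 0, 0.266, 0.335 and 3.84 FPKM, high at 24 h alone. It passed the minimum of 1 FPKM through that library alone. The PHT1-4 locus ZS09g0105300 was listed at 0, 0.0671, 0.182, 1.19, 2.11 and 1.55 FPKM, with every light value above every dark value. It passed the minimum of 1 FPKM through the light libraries alone. The other PHT1-4 locus, ZS04g0125800, was listed at 0, 0.0552, 0.150, 1.13, 0 and 0 FPKM. It passed the minimum through the 30-min library alone.

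The PHO1 family exports phosphate from cells. PHO1-1 (ZS01g0019200) stood at 2.32, 0.378, 6.33, 3.92, 0.294 and 2.69 FPKM and PHO1-3 (ZS06g0384100) at 0.391, 1.37, 4.81, 3.08, 0.385 and 1.18 FPKM. Both were highest at 5 days of darkness and lowest at 60 min of light. Against 5 days of darkness the log2 differences at 60 min were -2.50 and -2.07, and against 3 days -0.09 and -0.77.

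A list of 28 other loci tied to phosphate status (SPX proteins, purple acid phosphatases, PHR factors, lipid remodelling enzymes) showed 2 higher and 7 lower at 24 h of light against 5 days of darkness, and 3 higher and 4 lower against 3 days. At 30 min 6 were higher and 3 lower, and at 60 min 1 was higher and 0 lower. Medians against 5 days were 0.26, -0.07 and -0.10 at 30 min, 60 min and 24 h, beside 0, 0.01 and 0 over all loci. Against 5 days, the shares of all loci were 11.6% higher and 14.4% lower at 24 h, 9.49% and 11.4% at 30 min, and 14.8% and 12.8% at 60 min. At 24 h against 3 days they were 14.8% and 6.5%. The 3 most abundant were a purple acid phosphatase 1 named as inactive (ZS03g0107400), at 27.0, 33.8, 62.0, 34.2, 35.3 and 24.2 FPKM, PHR1 (ZS03g0221600), a factor of the phosphate starvation response, at 12.9, 22.9, 31.9, 27.6, 18.9 and 23.5 FPKM, and purple acid phosphatase 29, also named as inactive (ZS09g0391500), at 16.2, 23.2, 23.4, 29.3, 15.9 and 25.0 FPKM. Each lay within 3-fold over the 6 libraries. Singled out after the values were seen, SPX domain-containing protein 1 (ZS06g0526700), a phosphate sensor that restrains that response, stood at 5.76, 11.3 and 19.3 FPKM in darkness and at 13.2, 11.8 and 3.09 FPKM in the light. SPX domain-containing protein 4 (ZS03g0782100) stood at 8.69, 12.9, 14.8, 13.2, 7.67 and 3.997 FPKM. Both were lowest at 24 h. Other SPX loci differed: SPX domain-containing protein 5 (ZS03g0334800) was highest at 24 h, at 4.13 FPKM, and protein 6 (ZS07g0522500) stood at 1.75 FPKM at 24 h, against at most 0.700 FPKM in the dark.

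Sulfate transporters of group 3 were split in time. The locus named sulfate transporter 3.4 (ZS06g0052900), whose rice namesake distributes phosphorus, stood at 0.953, 8.08 and 20.5 FPKM in darkness and at 19.1, 12.4 and 20.4 FPKM in the light. Sulfate transporter 3.5 (ZS01g0579600) stood at 1.37, 10.9, 8.23, 19.05, 15.0 and 5.09 FPKM. Both were lowest at 1 day. Sulfate transporter 3.1 (ZS10g0326600) was the reverse, at 7.99 FPKM at 1 day and at 0, 0.741, 0.156, 1.16 and 0.360 FPKM in the later libraries. Of 10 sulfate assimilation loci, 0 were higher and 2 lower at 30 min, 1 higher and 2 lower at 60 min, and 1 higher and 1 lower at 24 h, each against 5 days of darkness. Of all loci, 9.49%, 14.8% and 11.6% were higher and 11.4%, 12.8% and 14.4% lower at those times. The medians of the list were -0.18, -0.40 and -0.52, beside 0, 0.01 and 0 over all loci. Against 3 days of darkness 2 were higher and 0 lower at 30 min, 4 and 3 at 60 min, and 1 and 1 at 24 h. All loci then had 12.9%, 24% and 14.8% higher and 4.9%, 8.89% and 6.5% lower. The list medians were then 0.36, 0.25 and 0.38, beside 0.27, 0.33 and 0.23 over all loci. Cysteine synthase (ZS12g0504300), the last step of cysteine synthesis and the most abundant of the list, stood at 88.9, 91.7, 59.8, 72.4, 22.6 and 41.8 FPKM, lowest at 60 min. Sulfite reductase (ZS05g0520300) stood at 30.5, 44.6, 60.4, 66.8, 34.0 and 57.9 FPKM, and a second cysteine synthase (ZS01g0817300) at 11.8, 19.3, 46.5, 23.4, 49.6 and 29.3 FPKM.

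Nicotianamine enzymes held the highest summed level of any family in every library but the 60-min one. There they summed to 138 FPKM, against 168 FPKM for the NRT1/PTR family. Nicotianamine synthase 1 (ZS03g0203700) stood at 285, 175 and 343 FPKM after 1, 3 and 5 days of darkness and at 595, 87.4 and 773 FPKM after 30 min, 60 min and 24 h of light. The neighbouring locus of the same name (ZS03g0203800) stood at 239.7, 110.5 and 98.6 FPKM in darkness and at 183, 35.8 and 232 FPKM in the light. Nicotianamine aminotransferase (ZS02g0228300) stood at 72.2, 39.3, 19.4, 37.1, 14.4 and 92.8 FPKM. For each of the 3 loci the 60-min library was the lowest of the 6, and the 30-min and 24 h libraries lay above both the 60-min and the 5-day dark library. The 1-day level was close to the 24 h level for the second synthase.

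At 24 h of light against 5 days of darkness the 2 synthases had log2 differences of 1.17 and 1.23 and the aminotransferase 2.20; against 3 days these were 2.13, 1.07 and 1.22. Against 60 min of light the differences at 24 h were 3.13, 2.67 and 2.60. The synthases share a product name and may share reads, so the split between them is uncertain.

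Loci around these enzymes were examined after the values were seen. S-adenosylmethionine is the substrate of nicotianamine synthase, and its methylthioadenosine by-product is recycled to methionine. Acireductone dioxygenase 1 (ZS10g0325900) of that recycling stood at 19.3, 6.15 and 4.67 FPKM in darkness and at 17.0, 9.69 and 14.0 FPKM in the light. The dehydratase-enolase locus of the cycle (ZS11g0420800) stood at 107, 116, 93.5, 106, 49.6 and 215 FPKM, and the nucleosidase (ZS06g0019900) at 84.2, 40.0, 34.8, 48.2, 33.9 and 76.3 FPKM. Both were lowest at 60 min, the nucleosidase by little (33.9 FPKM, against 34.8 FPKM at 5 days of darkness). S-adenosylmethionine synthase 1 (ZS05g0045100) stood at 741, 2807, 1727, 2266, 996 and 1823 FPKM, lowest at 1 day. S-adenosylmethionine synthase 2 (ZS01g0242000) stood at 304, 265, 297, 654, 456 and 493 FPKM, higher at every light time than at any dark time. S-adenosylmethionine synthase 3 (ZS01g0209200) stood at 71.9, 41.4, 66.6, 56.2, 28.4 and 30.6 FPKM, lowest at 60 min. The locus named iron deficiency protein Ids3 (ZS07g0085800), after a barley enzyme of mugineic acid synthesis, stood at 24.4, 41.9, 29.7, 52.1, 36.2 and 33.5 FPKM and was not lowest at 60 min.

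YSL6 (ZS04g0480600), a manganese-nicotianamine transporter in rice, stood at 11.4, 35.3 and 19.02 FPKM in darkness and at 9.83, 4.17 and 35.3 FPKM in the light. It was high at 3 days of darkness and 24 h of light and lowest at 60 min. The other 3 YSL loci reached 5.43 to 17.6 FPKM, each highest at 30 min of light.

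Zinc transporters ranged from steady to changing. ZTP29 (ZS02g0108200), in Arabidopsis a zinc transporter of the endoplasmic reticulum, stood at 16.6, 15.6, 17.8, 17.2, 15.4 and 16.4 FPKM, a 1.16-fold range and the narrowest of the 59 members. Zinc transporter At3g08650 (ZS05g0282400) had a 1.18-fold range, from 10.9 to 12.9 FPKM. Zinc transporter 2 (ZS03g0341800) stood at 0.794, 7.84, 12.4, 8.93, 2.42 and 6.51 FPKM, and zinc transporter 4 (ZS08g0128200) at 1.38, 1.34, 8.09, 5.81, 2.93 and 4.99 FPKM. Both were highest at 5 days of darkness. A ZIP-like zinc transporter (ZS06g0480900) stood at 11.4, 2.69, 2.44, 3.37, 3.43 and 2.02 FPKM, with 1 day the high library.

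The iron(II) uptake locus named Fe(2+) transport protein 1 (ZS03g0592800) stood at 0.501, 0.697 and 1.13 FPKM in darkness and at 0.213, 0.303 and 4.85 FPKM in the light, high at 24 h alone. Among 13 other loci of iron and metal handling, 4 were higher and 4 lower at 60 min of light against 5 days of darkness, while at 30 min 0 were higher and 1 lower and at 24 h 1 was higher and 1 lower. Of all loci 14.8% were higher and 12.8% lower at 60 min, 9.49% and 11.4% at 30 min, and 11.6% and 14.4% at 24 h. Medians of the list lay between -0.04 and -0.03. Against 3 days of darkness 0 were higher and 0 lower at 30 min, 4 and 2 at 60 min, and 4 and 0 at 24 h. All loci then had 12.9%, 24% and 14.8% higher and 4.9%, 8.89% and 6.5% lower. The list medians were then 0.39, 0.74 and 0.36, beside 0.27, 0.33 and 0.23 over all loci. The metal transporter OsNramp1 (ZS07g0198100) stood at 64.8, 28.2, 126, 33.5, 51.7 and 27.3 FPKM, highest at 5 days of darkness. Nramp3 (ZS06g0612700) stood at 7.40, 30.2, 45.3, 32.7, 18.0 and 40.5 FPKM and metal tolerance protein C2 (ZS02g0720800) at 9.77, 9.06, 16.2, 13.2, 15.8 and 11.0 FPKM. Singled out after the values were seen, both ferritins, which store iron, were highest at 60 min. ZS12g0013500 stood at 1.31, 3.55, 7.27, 8.06, 22.9 and 11.4 FPKM, and ZS11g0014800 at 3.61, 5.00, 5.29, 6.89, 18.1 and 11.5 FPKM. Nramp5 (ZS07g0196700), a manganese uptake transporter of rice roots, stood at 3.67, 0.592, 0.851, 1.29, 11.5 and 16.8 FPKM. Plant ferritins sit in plastids, and the green shoot markers were highest in the same 60-min library; their part in the ferritin levels was not tested.

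**Figure D4:**
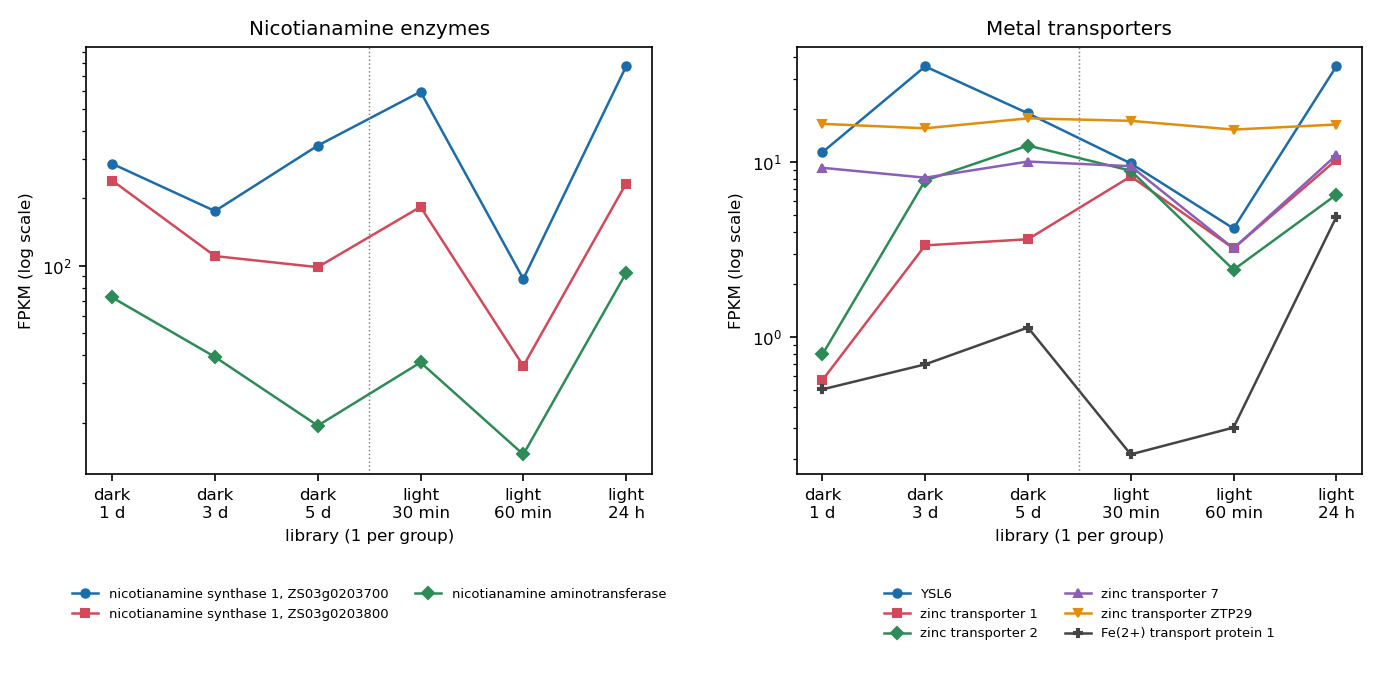
FPKM (log scale) of the 3 nicotianamine enzymes (left) and of 6 metal transporters (right) in the 6 libraries, 1 library per group. The 3 enzymes, YSL6 and zinc transporters 1, 2 and 7 are lower at 60 min of light than at 30 min and 24 h, ZTP29 stays between 15.4 and 17.8 FPKM, and Fe(2+) transport protein 1 is high at 24 h, at 4.85 FPKM.

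The dark time points were compared first. At 3 days against 1 day, 14 of the 59 members (23.7%) were at least 2-fold higher, where 13.5% of all loci were, and 8 (13.6%) were lower, where 14.5% of all loci were. The median difference was 0.18 over members and -0.03 over all loci. Apart from PHT1-8, which was listed at 0 at 1 day, the highest were the NPF2.11 loci ZS03g0615400 (3.05) and ZS03g0615300 (3.02). PHT1-1, sulfate transporters 3.5 and 3.4 and zinc transporter 2 lay between 2.22 and 2.33. NPF6.2 at -1.97 and the ZIP-like zinc transporter at -1.75 were among the lower members, as was sulfate transporter 3.1, listed at 0 at 3 days. Of these, NPF6.2 passed the minimum of 1 FPKM through the 1-day library alone. Over the sulfate family 2 of 4 were higher and 2 lower. Of the 6 root marker loci, 1 was higher and 2 were lower at 3 days than at 1 day, with a median of 0, and their part in these differences was not tested. Taking the 5-day library in place of the 3-day one gave 15 higher and 7 lower, beside 23.4% and 11.4% of all loci.

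At 5 days against 3 days of darkness, 7 members (11.9%) were higher, beside 14.5% of all loci, and 3 (5.08%) lower, beside 4.79%. The higher ones included NPF8.3 ZS10g0276900 (2.52), PHO1-1 (2.41), zinc transporter 4 (1.96), NPF6.3 (1.53), PHO1-3 (1.30) and sulfate transporter 3.4 (1.24). The lower ones were NPF2.11 ZS03g0615300 (-2.67) and the NPF3.1 loci ZS05g0422900 (-1.30) and ZS05g0422500 (-1.23). The median over all loci was 0.27 here and became 0 under scaling by the median ratio. The members then split into 6 higher and 7 lower, that is 46.2% higher of those past 2-fold in place of 70%, and all loci into 56.8% in place of 75.2%.

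After 30 min of light, 7 members (11.9%) were higher than at 5 days of darkness and 2 (3.39%) lower, beside 9.49% and 11.4% of all loci. NPF8.3 ZS04g0730000 (2.06), NPF2.11 ZS03g0615300 (1.90) and AMT1 member 1 (1.76) led, with YSL14 ZS02g0508500, AMT2 member 1, sulfate transporter 3.5 and zinc transporter 1 between 1.01 and 1.61. The 2 lower members were NPF8.3 ZS10g0276900 (-2.37), which was high in the 5-day library together with the green shoot markers, and PHT1-8, listed at 0. With the 3-day dark library as control 13 were higher and 2 lower, beside 12.9% and 4.9% of all loci, whose median was then 0.27. Median-ratio scaling left 6 higher and 5 lower, beside 8.11% and 7.58%. As deposited, NPF2.11 ZS03g0615300 turned to -0.78 and NPF8.3 ZS10g0276900 to 0.15.

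After 60 min of light, 4 members (6.78%) were higher than at 5 days of darkness and 10 (16.9%) lower, beside 14.8% and 12.8% of all loci. The median was -0.20 over members and 0.01 over all loci. Lower were PHO1-1 (-2.50), PHO1-3 (-2.07), zinc transporter 2 (-1.97), both nicotianamine synthases (-1.96 and -1.44), YSL6 (-1.95), NPF6.3 (-1.72), zinc transporters 7 (-1.40) and 4 (-1.21), and NPF3.1 ZS05g0422800 (-1.04). The higher ones reached under 10 FPKM in every library and were NPF7.3 (1.75), PHT1-4 ZS09g0105300 (1.40), NPF8.5 (1.29) and NPF4.5 ZS11g0219600 (1.14). Of these, PHT1-4 ZS09g0105300 passed the minimum of 1 FPKM through the light libraries alone. With the 3-day dark library as control 5 were higher and 9 lower, beside 24% and 8.89% of all loci, whose median was then 0.33, and zinc transporter 4 turned to 0.75. Median-ratio scaling gave 4 higher and 13 lower, beside 15.9% and 14.1%.

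After 24 h of light, 15 members (25.4%) were higher than at 5 days of darkness and 3 (5.08%) lower, beside 11.6% and 14.4% of all loci. The higher ones were 4 of 23 NRT1/PTR loci, the NRT2 locus, 3 of 6 ammonium transporters, the iron transporter, all 3 nicotianamine enzymes, 2 of 9 phosphate transporters and 1 of 8 zinc transporters. Nitrate transporter 2.3 (3.12), NPF7.3 (2.82) and PHT1-2 (2.27) led. NPF6.3 (-2.01), NPF8.3 ZS10g0276900 (-1.64) and PHO1-3 (-1.41) were lower. Of the higher members, PHT1-2 and AMT1 member 3 passed the minimum of 1 FPKM through the 24 h library alone. Both were listed at 0 at 5 days of darkness, so they had to be counted as higher. Nitrate transporter 2.3, AMT1 member 2 and PHT1-4 ZS09g0105300 (1.11) passed the minimum through light libraries alone. With the 3-day dark library as control 17 were higher and 1 lower, beside 14.8% and 6.5% of all loci, whose median was then 0.23. Median-ratio scaling of the same libraries gave 13 higher and 7 lower, beside 9.98% and 9.37%. The 1 lower as deposited was NPF2.11 ZS03g0615300, at -1.39 in place of 1.28, and NPF8.3 ZS10g0276900 turned to 0.88.

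**Figure D5:**
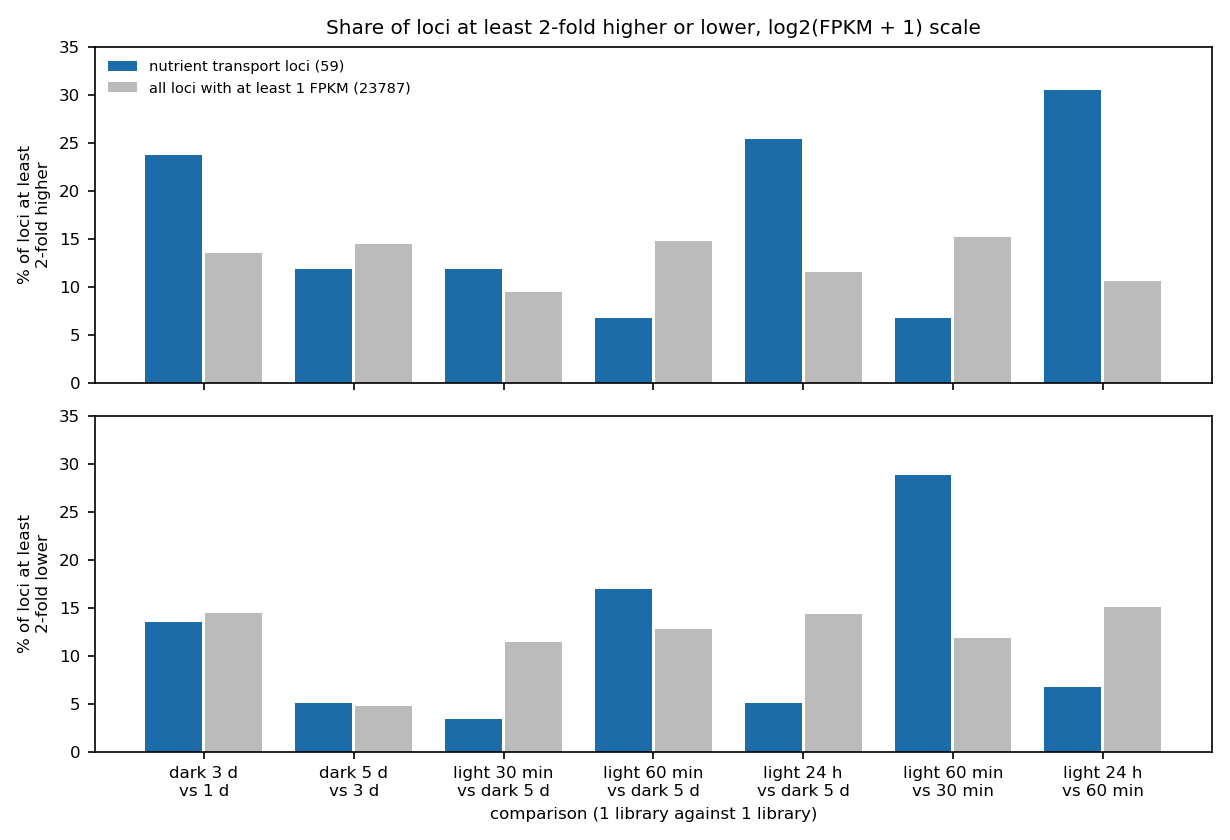
Percent of loci at least 2-fold higher (top) and lower (bottom) on the log2(FPKM + 1) scale in 7 comparisons of 1 library with 1 library, for the 59 members (blue) and all 23787 loci with at least 1 FPKM (grey). At 24 h against 60 min of light 30.5% of members and 10.6% of all loci were higher, and at 60 min against 30 min of light 28.8% and 11.8% were lower.

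Light libraries were also set against each other, after the values were seen. At 60 min against 30 min, 4 members (6.78%) were higher and 17 (28.8%) lower, beside 15.2% and 11.8% of all loci, and the median was -0.54. At 24 h against 60 min, 18 (30.5%) were higher and 4 (6.78%) lower, beside 10.6% and 15.1%, with a median of 0.53. Both comparisons use the 60-min library, in which the green shoot markers summed to 1025 FPKM; their part in these counts was not tested. At 24 h against 30 min, without that library, 9 members (15.3%) were higher and 5 (8.47%) lower, beside 6.23% and 7.63% of all loci.

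Members at least 2-fold lower at 60 min than at both 30 min and 24 h numbered 9 of 59 (15.3%), beside 4.76% of all loci. They were the 3 nicotianamine enzymes, YSL6, zinc transporters 1, 2 and 7, PHO1-1 and NPF3.1 ZS05g0422900. By family, 7 of the 16 metal loci were among them and 2 of the 43 others. This joining of metal families was not planned. Of the 7, 3 were nicotianamine enzymes, and the synthases among those may share reads. Among the 13 other loci of iron and metal handling, 3 were higher and 3 lower at 60 min than at 30 min, with a median of 0.15. At 24 h against 60 min 3 of those 13 were higher and 1 lower, with a median of -0.02. All loci had 15.2% and 11.8%, then 10.6% and 15.1%. Zinc transporter 1 (ZS01g0811900) stood at 0.566, 3.34, 3.62, 8.28, 3.21 and 10.3 FPKM and zinc transporter 7 (ZS05g0117700) at 9.28, 8.15, 10.1, 9.48, 3.21 and 11.0 FPKM. The opposite pattern, higher at 60 min than at both other light times, was seen in 1 member, NPF8.3 ZS10g0276900, and in 10.9% of all loci.

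Members at least 2-fold above all 5 other libraries at 24 h of light numbered 6 of 59 (10.2%), beside 2.07% of all loci. AMT1 member 3 and PHT1-2 passed the minimum of 1 FPKM through the 24 h library alone, so they had to be high there. Nitrate transporter 2.3 and AMT1 member 2 passed it through light libraries alone. The 6 were nitrate transporter 2.3, AMT1 members 2 and 3, NPF7.3, PHT1-2 and Fe(2+) transport protein 1, and 5 of the 6 reached less than 10 FPKM. None was 2-fold below all others at 24 h, beside 0.555% of all loci. The 1-day dark library was 2-fold below all others for 6 members, beside 4.03% of all loci, and above all others for 3, beside 1.9%. Below the others were, for example, NPF2.11 ZS03g0615400, PHT1-1 and sulfate transporters 3.4 and 3.5. Above them were NPF6.2, sulfate transporter 3.1 and the ZIP-like zinc transporter. NPF6.2 passed the minimum of 1 FPKM through the 1-day library alone, so it had to be high there. Of the 59 members, 28 had their lowest value at 1 day (47.5%, beside 34.9% of all loci) and 15 their highest at 30 min of light (25.4%, beside 16.3%). Ties went to the earliest library, for members and for all loci. Among the 28, AMT1 member 3, PHT1-8 and PHT1-4 ZS04g0125800 were listed at 0 at 1 day and also in later libraries. A total of 8 members (13.6%) stayed within 2-fold over all 6 libraries, beside 25.5% of all loci.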

How the data were processed

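Poly(A) RNA was sequenced in paired ends, per the labels' protocols, from 1 RNA pool per group. Per the file headers, the values the authors deposited are FPKM, in 1 column per library. Which aligner and counter made them is not given in the sources used here. Bowtie 0.12.2 and mm8, a mouse build, stand in the submitters' processing notes with no role. The kit named marks no strand, so antisense reads cannot be told apart.

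A count test was not run, since whole reads could not be recovered: among single-transcript loci below 0.1 FPKM, 2.44% to 4.55% lay within 0.3% of the most common ratio between a pair of libraries. Depth is therefore unknown, and counting intervals are left out.

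Differences are log2((FPKM + 1)/(FPKM + 1)), which understates the change of low loci, over 23787 loci with at least 1 FPKM in a library, with Python 3.11.15, pandas 2.3.3 and NumPy 2.4.6. A locus was counted at a difference of 1 or more in size. The functions were tested on simulated data. Product names are the deposited ones, and 0 of 61 member gene names matched the RefSeq table of assembly ASM3414082v1, so no sequence or position is given. A set of 2 members merges several gene names.

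Members and lists were chosen with earlier results of these data known. Named with all 6 values were 31 members: those that reached 20 FPKM, the highest mean of each family, and the 3 highest and 3 lowest differences past 2-fold per comparison. Others named are said to be chosen later, or are members past 2-fold or in a pattern. From each pathway list the 3 loci of highest mean were named. Light comparisons share the 5-day dark library and were repeated with the 3-day one. Other alternatives were a pseudocount of 0.1 FPKM, scaling by the median ratio of 20301 loci or by library sums, and no minimum.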

Additional observations from a re-analysis of the deposited data

Results flagged for a closer look

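Both nicotianamine synthase loci lay on opposite sides of the 5-day dark library at different light times. ZS03g0203700 had a log2 difference of 1.17 at 24 h of light and -1.96 at 60 min, and ZS03g0203800 had 1.23 at 24 h and -1.44 at 60 min. With the 3-day dark library as control the 60-min values were -0.996, just under 2-fold, and -1.60, and the 24 h values 2.13 and 1.07. Each time holds 1 library, the difference between times was not tested, and both comparisons share the 5-day dark library. The 60-min library also held the highest sum of green shoot markers, 1025 FPKM against 33.0 at 30 min and 55.2 at 24 h; their part in the result was not tested.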

How the results depend on the processing

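No paired analysis was possible because each group held 1 library. Without a minimum FPKM, and with library sums set equal, each count of members higher or lower stayed within 1.5 times its value. With a pseudocount of 0.1 FPKM members higher were 22 at 3 against 1 day, 12 at 5 against 3 days, 15 at 30 min and 9 at 60 min against 5 days of darkness, and 8 at 60 against 30 min. Members lower were then 5 at 5 against 3 days, 7 at 30 min and 7 at 24 h against 5 days of darkness, and 7 at 24 h against 60 min. Under median-ratio scaling 7 were lower at 5 against 3 days. With the 3-day dark control 13 were higher at 30 min and 1 lower at 24 h, where median-ratio scaling gave 6 higher and 5 lower at 30 min and 13 higher and 7 lower at 24 h; with the 1-day control 15 were higher and 7 lower at 5 days. The 30-min in place of the 60-min library left 9 higher at 24 h. Against the 3-day dark library 5 differences of named members turned: NPF2.11 ZS03g0615300 to -0.78 at 30 min and -1.39 at 24 h, NPF8.3 ZS10g0276900 to 0.15 and 0.88, and zinc transporter 4 (ZS08g0128200) to 0.75 at 60 min. Another 6, ZS03g0203700 at 60 min (-0.996) among them, dropped under 2-fold and 19 did not. The causes were not tested. Low loci are limited by unknown depth.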
